A study of Rapana venosa with 9 samples.

Results

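miR-278 was read in Rapana venosa, the veined rapa whelk, a sea snail whose planktonic larvae settle and metamorphose into crawling juveniles. Its members were the references named miR-278 in the deposited small RNA table, which are miR-278-x, miR-278-y and miR-278-z. They are 3 of 918 references, and all 3 were among the 214 with enough counts to be tested. They were chosen by their measured counts in these 9 libraries, which increased over the stages, and by the ratios between them, so their levels, changes and ratios are given below as a description and without a test. The study compared precompetent larvae (Pre-CL, with 3 spiral whorls), competent larvae (CL, with 4 spiral whorls) and postlarvae (PL, juveniles after metamorphosis), with 3 libraries of each. The labels give no genotype or drug that separates the groups, and all descend from wild-caught parents and were fed mixed microalgae as planktonic larvae. The labels describe each replicate as 40 to 100 individuals, but they also name the intestine of an individual as the source of RNA, and which holds for these libraries was not settled. Stage is the only labelled difference, so time in culture, diet and metamorphosis cannot be told apart. In such bulk RNA, fewer cells of a type and less RNA per cell cannot be told apart either.

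A miRNA is cut from a hairpin precursor, and either arm of the hairpin can give a mature strand. The strand guides Argonaute to messenger RNAs, mainly through its seed, the bases near its 5′ end, and lowers their translation or stability. In Drosophila, miR-278 takes part in energy homeostasis and acts in the fat body on the growth regulator expanded, with effects on the response to insulin. In the migratory locust, let-7 and miR-278 target Krüppel homolog 1, a transcription factor of the juvenile hormone response that holds back metamorphosis.

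The reference sequences are shown because they decide what the names can be compared for. They are written 5′ to 3′ with T, as deposited, and capitals mark the seed, bases 2 to 8.
miR-278-y: tCGGTGGGacttttgttcggtt
miR-278-z: tCGGTGGGattttcgttcgg
miR-278-x: tCGGTGGGattttcgttcggg
All 3 references carried the seed CGGTGGG, and none of the other 915 did. miR-278-z, of 20 bases, lay whole within miR-278-x, of 21 bases, which adds a base at the 3′ end. Counted from 1 at the 5′ end, with the base of miR-278-y given first, miR-278-y differed from miR-278-z by C10T and T14C over 20 bases, and from miR-278-x by T21G as well. miR-278-y itself has 22 bases. No other reference aligned to a member without gaps over 16 or more bases with fewer than 5 mismatches.

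The sequences went against a reading of the suffixes as opposite hairpin arms. Strands of opposite arms pair with each other in the precursor, yet miR-278-x and miR-278-y shared their seed. Of the 59 names that had both an x and a y reference, the pair shared bases 2 to 8 in only 3. The largest number of complementary bases in an ungapped pairing of x with y was 7 for miR-278, against a median of 12 and a range of 5 to 20 in the 58 other names, of which 54 had more. The 3 references are called isoforms here as a name for references that share a seed. A ratio between them is a ratio of isoforms in that sense and is not read as one of arms. Whether they come from the same strand of the same precursor was not tested. What the suffixes stand for is not given in the sources used here.

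The counts for similar isoforms carry an uncertainty of assignment. The authors allowed up to 2 mismatches when tags were matched to references, which is the number of differences between miR-278-y and miR-278-z, and every base of miR-278-z is also in miR-278-x. How a tag that matched several references was assigned is not given in the sources used here. How far the 3 counts are split or shared between the references was not tested.

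The 9 libraries held between 3762511 and 6781384 miRNA counts, and between 8235539 and 10694742 clean reads. Counts were scaled to a common depth (CPM) with TMM factors, which set libraries to a common level under the assumption that most miRNAs do not change. The factors ran between 0.733, in Pre-CL 3, and 1.50, in PL 2. The scaling bears on every change between stages below, so values over total miRNA counts are given beside it. Pre-CL 3 also stood apart in the proportions of the isoforms, and results that rest on it are given with and without it.

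miR-278-y was the abundant isoform and was highest after metamorphosis. It had 6704, 8656 and 4476 counts in the Pre-CL libraries, 16991, 19947 and 11673 in the CL libraries, and 44152, 68424 and 83218 in the PL libraries. On the TMM scale these were 1254, 1391 and 1035 CPM in Pre-CL, 2512, 3773 and 2633 CPM in CL, and 8838, 9096 and 13175 CPM in PL. No library of a later stage was as low as any library of an earlier stage, at either step. Such a lack of overlap was met by 19.6% of the tested miRNAs in CL over Pre-CL, 33.6% in PL over CL and 36.9% in PL over Pre-CL, and it is a description here. The stage means were 1227 ± 180 CPM in Pre-CL, 2973 ± 696 CPM in CL and 10370 ± 2433 CPM in PL (SD, n = 3 each). By counts within a library, miR-278-y ranked 35 to 37 in Pre-CL, 27 to 28 in CL and 18 to 20 in PL among the 918 references.

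miR-278-z was a minor isoform whose level in larvae already differed between the larval stages. It had 144, 174 and 245 counts in the Pre-CL libraries, 586, 620 and 394 in the CL libraries, and 531, 704 and 797 in the PL libraries. These were 26.9, 28.0 and 56.7 CPM in Pre-CL, 86.6, 117 and 88.9 CPM in CL, and 106, 93.6 and 126 CPM in PL. The CL libraries were all above the Pre-CL libraries, whereas the PL and CL libraries overlapped. The means were 37.2 ± 16.9 CPM in Pre-CL, 97.6 ± 17.1 CPM in CL and 109 ± 16.4 CPM in PL (SD, n = 3 each). Pre-CL 3, at 56.7 CPM, was about as far from the other Pre-CL libraries as from the lowest CL library.

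miR-278-x was the rarest isoform and had the same order of stages as miR-278-z. It had 40, 51 and 42 counts in the Pre-CL libraries, 114, 139 and 75 in the CL libraries, and 116, 164 and 152 in the PL libraries. These were 7.48, 8.20 and 9.72 CPM in Pre-CL, 16.9, 26.3 and 16.9 CPM in CL, and 23.2, 21.8 and 24.1 CPM in PL. The CL libraries were again all above the Pre-CL libraries, and CL 2 was above every PL library. The means were 8.47 ± 1.14 CPM in Pre-CL, 20.02 ± 5.43 CPM in CL and 23.0 ± 1.14 CPM in PL (SD, n = 3 each). At these depths counting alone gives a coefficient of variation of 15.0% for miR-278-x in a Pre-CL library, against 1.23% for miR-278-y, so the level of miR-278-x is the least precise.

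**Figure D1:**
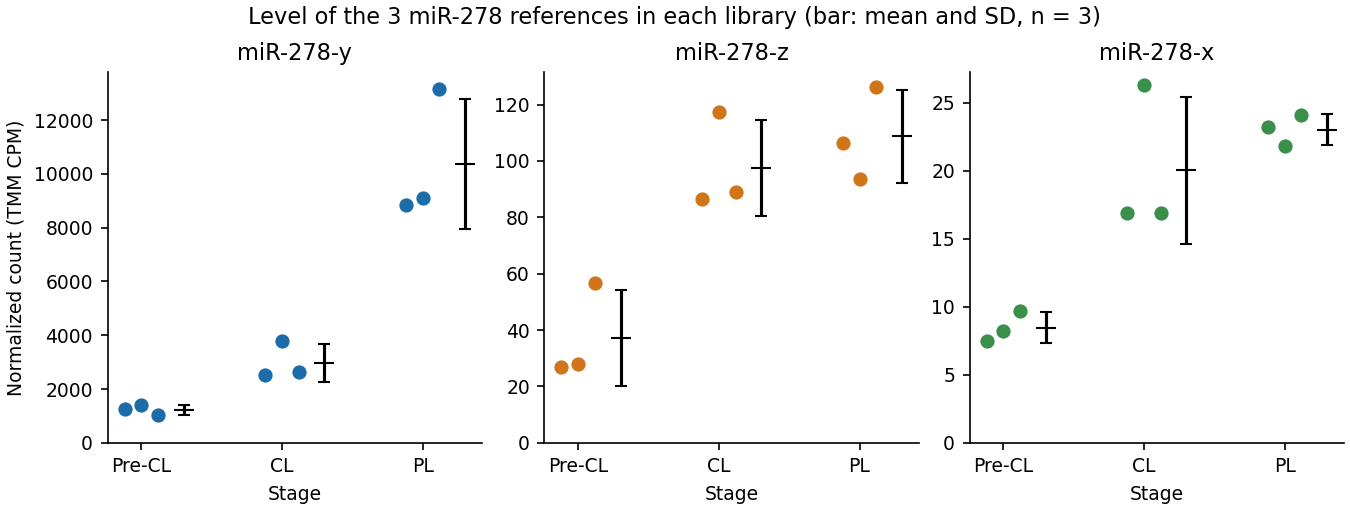
Level of miR-278-y, miR-278-z and miR-278-x in each of the 9 libraries, in CPM on the TMM scale on linear axes that start at 0 and differ between isoforms, with a point for each library and a bar for the mean and SD of each stage (n = 3). The PL libraries of miR-278-y sit at 8838 CPM or more and the CL libraries at 3773 CPM or less, whereas the PL and CL libraries of miR-278-z and miR-278-x overlap.

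All 3 isoforms were higher in competent than in precompetent larvae. In CL over Pre-CL, the fitted log2 fold change was 1.39 ± 0.34 for miR-278-z, 1.28 ± 0.24 for miR-278-y and 1.24 ± 0.30 for miR-278-x (SE), or 2.63-fold, 2.42-fold and 2.36-fold. The greatest gap between any pair of them was 0.15, below the standard error of each, but this rested on Pre-CL 3. Without that library the values were 1.80 ± 0.25 for miR-278-z, 1.14 ± 0.25 for miR-278-y and 1.32 ± 0.31 for miR-278-x (SE), and miR-278-z exceeded miR-278-y by 0.66. All 3 members passed the call used for the whole table (edgeR, adjusted p limit 0.05 and a fold change over 2), by which 10.3% of the 214 tested miRNAs were called higher in CL. As this contrast was used to choose the members, nothing is read from that count. Without Pre-CL 1 or without CL 2, miR-278-x (1.16 and 1.07) and miR-278-z (1.21 and 1.31) were no longer called, and miR-278-z was not called without CL 3 either (1.44). miR-278-x was also not called when no filter on low counts was used (1.33).

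At metamorphosis the isoforms parted. In PL over CL, the log2 fold change of miR-278-y was 1.80 ± 0.25, or 3.49-fold, against 0.20 ± 0.30 for miR-278-x and 0.16 ± 0.34 for miR-278-z (SE). The changes of miR-278-x and miR-278-z were smaller than their standard errors on this scale, and that of miR-278-z was -0.01 without PL 3. By the same call, 1 of the 3 members (miR-278-y) was called, where 22.4% of the tested miRNAs were called higher in PL, and as this contrast too was used to choose the members, nothing is read from the count. Over the whole course, in PL over Pre-CL, the values were 3.08 ± 0.26 for miR-278-y, 1.55 ± 0.35 for miR-278-z and 1.44 ± 0.30 for miR-278-x (SE), or 8.45-fold, 2.92-fold and 2.72-fold. Without Pre-CL 3 they were 2.96, 1.97 and 1.54. All 3 were called, where 28.5% of the tested miRNAs were called higher, and again nothing is read from the count.

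**Figure D2:**
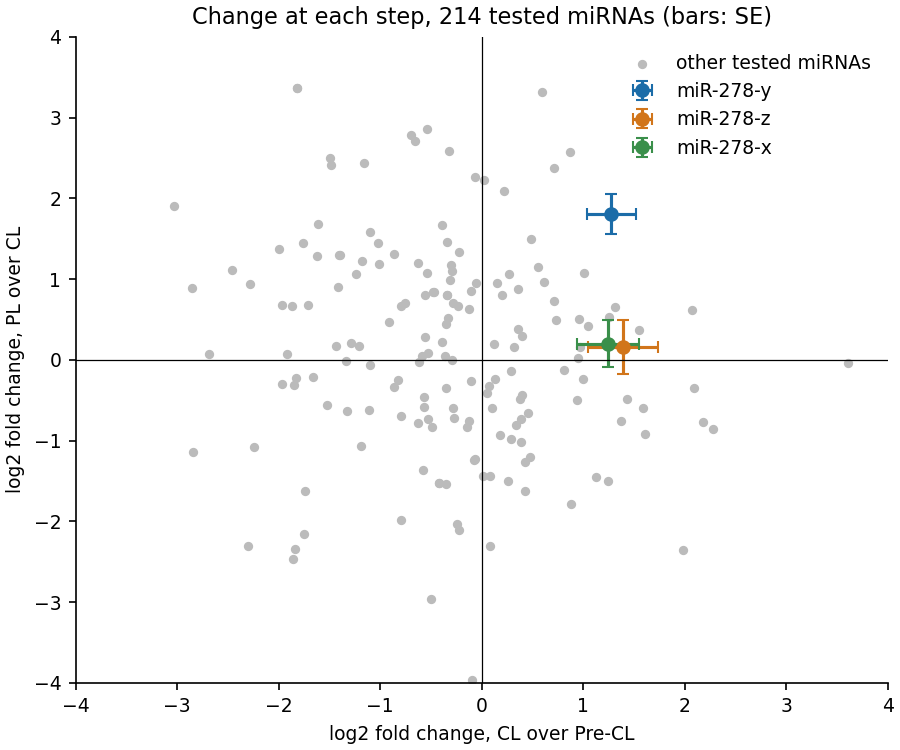
Log2 fold change of the tested miRNAs in CL over Pre-CL (x axis) and in PL over CL (y axis), with grey points for the other miRNAs, coloured points for the 3 isoforms and bars for their SE. The axes end at 4 in either direction and show 172 of the 214 miRNAs, with 42 outside. With all libraries in the fit the isoforms lie at 1.24 to 1.39 on the x axis, and miR-278-y stands apart on the y axis, at 1.80 against 0.20 and 0.16.

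Whether miR-278-x and miR-278-z moved at the second step depended on the library size used. Over total miRNA counts, the log2 fold change in PL over CL was 2.38 for miR-278-y, 0.80 for miR-278-x and 0.74 for miR-278-z. Over clean reads, miR-278-x and miR-278-z had 0.49 and 0.43. On total counts no PL library overlapped any CL library for any of the isoforms. Of all tested miRNAs, 45.3% were free of overlap in that direction in PL over CL on this scale, 46.7% in PL over Pre-CL and 18.7% in CL over Pre-CL. The means of miR-278-z were 31.1 ± 9.36 CPM in Pre-CL, 85.3 ± 7.95 CPM in CL and 142 ± 2.46 CPM in PL (SD, n = 3 each). Those of miR-278-x were 7.30 ± 0.860, 17.4 ± 3.11 and 30.3 ± 2.54 CPM, in the same order of stages. The median log2 fold change of all tested miRNAs in PL over CL moved with the scaling too, from 0.20 on the TMM scale to 0.49 over clean reads and 0.79 over total counts. Relative to that median, miR-278-x and miR-278-z lay close to it on each scale and miR-278-y lay well above it. Read as libraries that do not overlap at both steps, the stepwise order held for miR-278-y alone on the TMM scale, where 6.07% of tested miRNAs had it, and for all 3 isoforms over total counts, where 9.35% had it. The first step depended less on scaling, as the median of all tested miRNAs in CL over Pre-CL lay between -0.31 and -0.23 on the 3 scales.

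**Figure D3:**
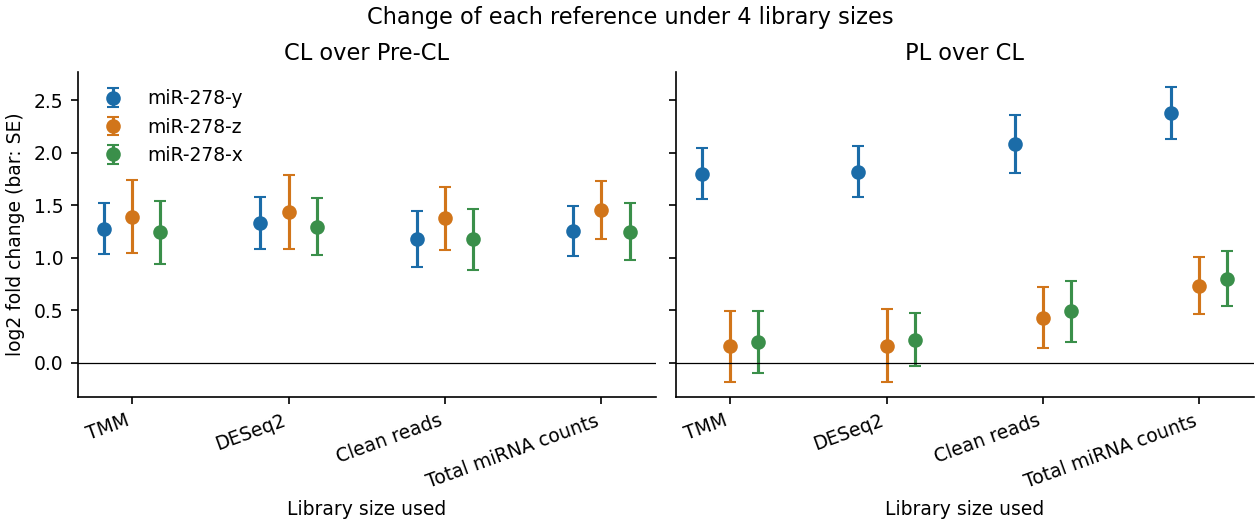
Log2 fold change of each isoform in CL over Pre-CL (left) and PL over CL (right) with each of 4 library sizes along the x axis, with bars for the SE. In PL over CL miR-278-y stays between 1.80 and 2.38, while miR-278-x and miR-278-z lie near 0 on the TMM scale and at 0.80 and 0.74 over total counts.

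Ratios of isoforms within a library do not depend on the library size. There were 46.6, 49.7 and 18.3 counts of miR-278-y for each count of miR-278-z in the Pre-CL libraries, 29.0, 32.2 and 29.6 in the CL libraries, and 83.1, 97.2 and 104 in the PL libraries. All PL libraries were above all earlier libraries, and the Pre-CL libraries lay on both sides of the CL libraries. For each count of miR-278-x there were 168, 170 and 107 counts of miR-278-y in Pre-CL, 149, 144 and 156 in CL, and 381, 417 and 547 in PL, which gave the same picture. miR-278-z per miR-278-x was 3.60, 3.41 and 5.83 in Pre-CL, 5.14, 4.46 and 5.25 in CL, and 4.58, 4.29 and 5.24 in PL, with overlap of all stages.

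On the log2 scale, the ratio of miR-278-y to miR-278-z averaged 5.12 ± 0.81 in Pre-CL, 4.92 ± 0.08 in CL and 6.56 ± 0.17 in PL (SD, n = 3 each). The ratio in PL was thus 3.13-fold that in CL, a difference of 1.64. The ratio of miR-278-y to miR-278-x averaged 7.18 ± 0.38 in Pre-CL, 7.22 ± 0.06 in CL and 8.79 ± 0.27 in PL, and its difference of 1.57 in PL over CL was 2.97-fold. The ratio of miR-278-z to miR-278-x differed by -0.08 in PL over CL and by 0.25 in CL over Pre-CL, both within the spread of the libraries. The mean ratio for Pre-CL rested on Pre-CL 3. Without it, the log2 ratio of miR-278-y to miR-278-z was 5.59 in Pre-CL, and the difference was -0.67 in CL over Pre-CL, against -0.20 with it, and 0.97 in PL over Pre-CL, against 1.44 with it. The ratio of miR-278-y to miR-278-x then differed by -0.18 in CL over Pre-CL, against 0.04 with it, and by 1.39 in PL over Pre-CL, against 1.61 with it. For miR-278-z to miR-278-x the differences without it were 0.49 and 0.42, against 0.25 and 0.17 with it.

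**Figure D4:**
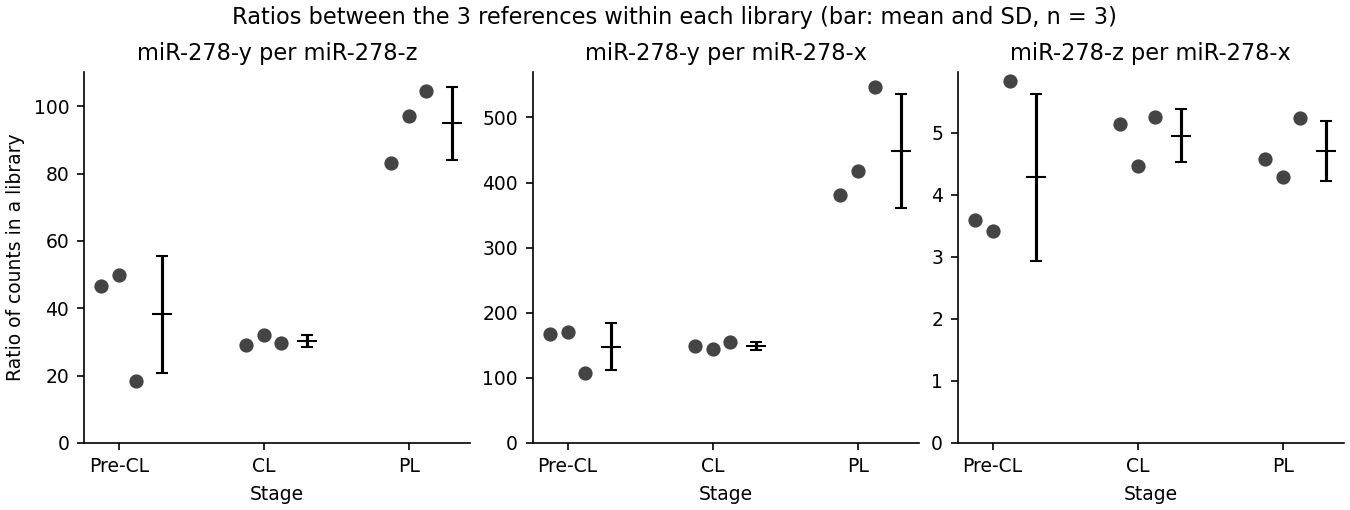
Counts of an isoform per count of another within each library, by stage, on linear axes that start at 0, with a point for each of the 9 libraries and a bar for the mean and SD of each stage. The PL libraries are above all others for miR-278-y per miR-278-z (83.1 or more, against 49.7 or less) and for miR-278-y per miR-278-x (381 or more, against 170 or less), and the stages overlap for miR-278-z per miR-278-x.

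As a share of the counts of the 3 isoforms, miR-278-z made up 2.09%, 1.96% and 5.14% in the Pre-CL libraries, 3.31%, 2.99% and 3.24% in the CL libraries, and 1.19%, 1.02% and 0.947% in the PL libraries. The exact 95% binomial interval of the share in Pre-CL 3 was 4.53% to 5.81%, and those of Pre-CL 1 and Pre-CL 2 were 1.77% to 2.46% and 1.68% to 2.27%. Pre-CL 3 therefore differed from its replicates by more than counting error, which is all that these intervals cover. The same library had 21312 CPM of let-7-x, against 9406 and 8135 CPM in Pre-CL 1 and Pre-CL 2. It did not stand apart in let-7-y, at 8.79 CPM against 8.42 and 10.6 CPM, so nothing is read from let-7-x about the stage of that library. The part of that library in the result was not tested beyond leaving it out. miR-278-x made up 0.574% to 0.882% in Pre-CL, 0.618% to 0.671% in CL and 0.181% to 0.259% in PL, and miR-278-y made up 94.0% or more in every library. Together the isoforms took 0.112% ± 0.0313 of all miRNA counts in Pre-CL, 0.269% ± 0.0369 in CL and 1.37% ± 0.169 in PL (SD, n = 3 each).

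The gap between isoforms in PL over CL was set beside that of other names with several tested references, of which there were 13 with 17 pairs. These pairs were taken by name and not by a shared seed. Of all 62 names with several references, tested or not, only 4 had the same bases 2 to 8 throughout. The 17 pairs are therefore not a measure of how far isoforms with a shared seed lie apart. miR-278-y and miR-278-z differed by 1.65 in log2 fold change, with 5 of the 17 pairs farther apart, and miR-278-y and miR-278-x by 1.60, with 7 farther apart. miR-278-x and miR-278-z differed by 0.05, and 16 of the 17 pairs were farther apart, the median being 1.26.

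The miRNAs whose pattern was most like each isoform were found by the root mean square difference of centred log2(CPM + 1) over the 9 libraries, among references with a mean of at least 10 CPM. For miR-278-y they were miR-133-y (0.38), miR-133-z (0.40), miR-190-x (0.47) and miR-124-y (0.51). The first pair share the seed TGGTCCC of the muscle miRNA miR-133, and miR-124 is a miRNA of neurons in many animals. Like miR-278-y, miR-133-z was highest in PL, at 409 CPM in Pre-CL, 671 CPM in CL and 3471 CPM in PL on average.

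For miR-278-x the nearest were miR-1-z (0.15), miR-2001-x (0.17), miR-981-y (0.23) and miR-206-y (0.27), and for miR-278-z they were miR-1-z (0.22), miR-206-y (0.22), miR-98-x (0.31) and let-7-x (0.34). miR-1 and miR-206 are muscle miRNAs and here share the seed GGAATGT, while miR-98 belongs to the family of let-7, with which it shares GAGGTAG, and let-7 is known for developmental timing in worms and flies. miR-1-z averaged 15123 CPM in Pre-CL, 31336 CPM in CL and 41842 CPM in PL. The other miR-1 reference tested, miR-1-y, did not follow it. Its log2 fold change was 0.29 ± 0.17 in CL over Pre-CL and -0.14 ± 0.17 in PL over CL (SE). Likeness to miR-1-z and miR-206-y is thus not read as a trait of muscle miRNAs, and a part of muscle was not tested. The distance of miR-278-x from miR-278-z was 0.26, and the distances of miR-278-y from miR-278-x and miR-278-z were 0.81 and 0.83. The 4 miRNAs listed for miR-278-y, all with other seeds, were thus nearer to it than either of its isoforms was. With total counts as library size, the same 4 were nearest for each isoform apart from miR-206-y for miR-278-x.

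Other miRNAs known for insulin signalling, metabolism or growth in flies or vertebrates (bantam, let-7, miR-8, miR-14, miR-33, miR-277, miR-305 and miR-375) had 11 references, of which 7 were tested. In CL over Pre-CL, 2 were called higher and 0 lower, where 10.3% of all tested miRNAs were called higher and 9.35% lower, at a list median of 0.40 on the log2 scale against -0.29 over all tested miRNAs. None was lower at an unadjusted p under 0.05 either, and 0 were called lower by DESeq2 and by limma. The abundant miR-8-y was just over that limit (-0.56 ± 0.25 SE, unadjusted p = 0.0515 by edgeR). Without Pre-CL 3 it was lower at an unadjusted p under 0.05, and 0 of the list were called lower. The 2 called higher were let-7-x, at 37713, 42072 and 37368 CPM in CL against 9406, 8135 and 21312 CPM in Pre-CL (1.59 ± 0.34 SE, adjusted p = 0.0103 by edgeR), and let-7-y (1.31 ± 0.29, adjusted p = 0.0118).

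In PL over CL, 1 was called higher, where 22.4% of all tested miRNAs were, and it was miR-8-x (1.34 ± 0.33, adjusted p = 0.00999 by edgeR). miR-8-x is the minor of the miR-8 references, and the abundant miR-8-y was under the fold limit (0.80 ± 0.25, adjusted p = 0.0294 by edgeR). miR-8-x had 53.6, 59.3 and 82.5 CPM in PL, against 22.5, 32.2 and 22.6 CPM in CL. The 1 called lower, where 14.5% of the tested miRNAs were called lower, was miR-375-y (-1.44 ± 0.31, adjusted p = 0.00489 by edgeR), a miRNA of the insulin-secreting pancreatic cell in mammals. It had 5632, 4255 and 6558 CPM in PL, against 11265, 18627 and 14685 CPM in CL, with no overlap. The share of tested miRNAs free of overlap in that direction was not taken, so nothing is read from it. In PL over Pre-CL, 3 were called higher, let-7-y, miR-277-y and miR-8-x, and 1 lower, miR-375-y, where 28.5% of the tested miRNAs were called higher and 22.0% lower. The list medians were 0.65 in PL over CL and 0.99 in PL over Pre-CL, against 0.20 and 0.06 over all tested miRNAs. Over total counts, miR-375-y was not called in either comparison, and without CL 3 none of the list was called higher in PL over CL and 1 in CL over Pre-CL. Without Pre-CL 2, 2 were called higher in PL over CL. Without CL 2, 8 of the references were tested, and 5 were called higher in PL over Pre-CL, of which 4 were among the 7.

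The deposited pair table links miRNAs to predicted target genes and gives the authors' mean FPKM of each gene at each stage from an earlier transcriptome, with no replicates. Its 30524 pairs, of 195 miRNAs and 11401 genes, were kept by the authors for an inverse correlation over the stages, so that decreases are favoured among targets of miRNAs that increase. Targets were predicted with no mismatch allowed at bases 2 to 8, the seed that the 3 isoforms share. The isoforms took part in 191 pairs, with 58 targets for miR-278-x, 65 for miR-278-y and 68 for miR-278-z, against a median of 121 per miRNA of the table. They came to 77 different genes, and 49 were targets of all 3.

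Every target of miR-278-x (100%) was a target of miR-278-z, and 85.3% of the miR-278-z targets were targets of miR-278-x. With miR-278-y, miR-278-z shared 56 targets, which are 86.2% of those of miR-278-y and 82.4% of those of miR-278-z. miR-278-x shared 49 with it, which are 84.5% of those of miR-278-x and 75.4% of those of miR-278-y. miR-278-y alone had 9 targets, miR-278-z alone had 3 and miR-278-x alone had none. Of the 77 genes, 61 were also paired with at least 1 other miRNA, at a median of 2. The share of all 11401 genes paired with several miRNAs was not taken, so this count is not read as a trait of miR-278 targets.

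All 77 targets had a lower mean in CL than in Pre-CL and in PL than in CL, among pairs that the authors had kept for inverse correlation. Their median FPKM was 5.37 in Pre-CL, 2.81 in CL and 1.56 in PL, and the median target was at 19.8% of its Pre-CL level in PL. The 3284 other targets of miRNAs with a higher mean TPM at each step had a median of 23.3%, and 98.7% of them were lower at both steps. In PL, 22 of the 77 were under 10% of the Pre-CL level, 6 were listed at 0, and 17 were still over 50%. Of the 3284 other targets, 948 were under 10%, 342 were at 0 and 656 were over 50%. These are similar shares, so the counts are not read as particular to miR-278.

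The target of highest level was peritrophin-1, a chitin-binding protein of the peritrophic matrix that lines the gut in insects, a target of all 3 isoforms (c133938_g1). Its authors' mean was 724 FPKM in Pre-CL, 77.9 FPKM in CL and 5.98 FPKM in PL. Adenosylhomocysteinase (c152626_g1), which removes the by-product of methylation reactions, had 503, 241 and 171 FPKM in the same order and was also a target of all 3. The other shared targets of high level were a protein with MAM and LDL-receptor class A domains (c151777_g1), with 111, 16.8 and 3.07 FPKM, and mitochondrial hydroxyacyl-coenzyme A dehydrogenase (c113448_g1), an enzyme of fatty acid oxidation, with 74.1, 52.7 and 33.9 FPKM. Ankyrin repeat and EF-hand domain-containing protein 1 (c153759_g1) had 50.7, 14.1 and 12.4 FPKM, and testis-expressed protein 36 (c152605_g1) had 39.2, 10.04 and 4.65 FPKM.

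Some targets of high level were paired with miR-278-x and miR-278-z but not with miR-278-y. The RNA-binding protein TDP-43 (c146503_g1) had 547, 218 and 62.5 FPKM in Pre-CL, CL and PL, and FAM166B (c144315_g1), a protein of ciliary microtubules in mammals, had 199, 19.0 and 0.04 FPKM.

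**Figure D5:**
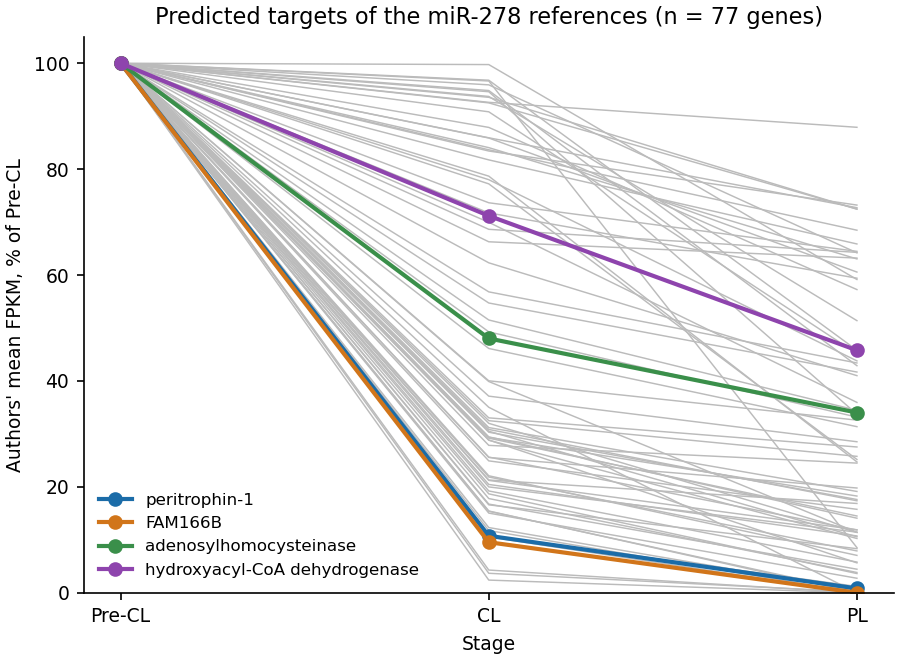
Authors' mean FPKM of the 77 predicted targets in Pre-CL, CL and PL as a percent of the Pre-CL level of the gene, with a line for each gene, 4 named genes in colour and no replicates. All lines go down at both steps, in pairs kept for inverse correlation, and they differ in how far, as peritrophin-1 and FAM166B end near 0 and mitochondrial hydroxyacyl-coenzyme A dehydrogenase at 45.8%.

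A search of the target descriptions for words of the study's themes found few. Insulin and energy words met 1 of the 77 targets, acyl-CoA synthetase family member 3 (c151565_g1) with 3.54, 3.42 and 1.62 FPKM in Pre-CL, CL and PL, against 0.693% of the 11401 genes. By the spelling of its name they missed mitochondrial hydroxyacyl-coenzyme A dehydrogenase (c113448_g1), described above as an enzyme of fatty acid oxidation. Adhesion and matrix words met 2 of 77, against 0.649% of the genes. These were a mucin-17-like protein (c156443_g1), with 2.59, 2.42 and 1.88 FPKM, and a gene described as collagen alpha-6(VI) in the first database and as the helicase DHX29 in the other (c156959_g1), with 33.1, 8.46 and 6.55 FPKM, so its identity is unsure. Words for cilia and for digestion met 0 of 77, where 1.02% of all target genes held each, and those for the Hippo pathway, nuclear receptors and Krüppel homologs, neural signalling and apoptosis also met 0. A count of 0 of 77 allows a share of up to 3.90% (3 counts), above each of those backgrounds, and the search depends on how proteins are named. Only 42 of the 77 had a protein description, and only 36 had one that was not just hypothetical or uncharacterized. The limit of 3.90% is thus over all 77 and not over those a word could meet. Chosen after their values were seen, 3 more targets that the search missed, beside FAM166B, are proteins known from cilia, namely CEP290 (c156921_g1), tectonic-2 (c143992_g1) and polycystin-2 (c146613_g2). In PL they had 2.71, 2.11 and 4.34 FPKM, against 7.55, 3.35 and 10.01 FPKM in Pre-CL. They were picked by hand and may not be all. No share of such proteins over all genes was taken, and nothing is read from their number. Neither expanded nor Krüppel homolog 1 was among the descriptions found.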

How the data were processed

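The authors sequenced small RNA, removed other RNA classes and matched the remaining tags to miRBase. The deposited counts are whole tag counts per reference, without normalization. The TPM deposited by the authors is treated as a score, since it is scaled to the known and predicted miRNA tags of a library and not to clean reads. The deposited FPKM are the authors' stage means. The authors' log2 ratios, p-values and correlations in the pair table were not used.

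Counts were fitted with edgeR 4.0.16 in R 4.3.3 (TMM, filterByExpr by stage, quasi-likelihood, Benjamini-Hochberg over 214 miRNAs, all 9 libraries, no covariate). Calls required a change of more than 2-fold at an adjusted p under 0.05. The common coefficient of biological variation came to 0.456. SE was taken from the fold change and its F statistic. Steps were tested on simulated data. Alternatives were library sizes by total counts or clean reads, no filter, limma 3.58.1 on log2(TPM + 1), DESeq2 1.42.0, the compared libraries alone, a replicate block and leaving out each library. Python 3.11.15, pandas 2.3.3, numpy 2.4.6 and scipy 1.17.1 were also used.

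The members, lists and naming rule were chosen with earlier results of these data known. The rule named the members, the 4 nearest miRNAs of each, references of like sequence, called miRNAs of the energy and growth list, the 6 described targets of highest FPKM for each member and the 3 highest of each word group. No sequence or genome outside the table was used.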

Additional observations from a re-analysis of the deposited data

How the results depend on the processing

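PL over CL and PL over Pre-CL depended on the library size, and CL over Pre-CL did not for the members. Of 484 values under alternatives, 437 moved by less than the spread between replicates or by under 1.5 times (counts). A change of sign was seen in 5, all differences near 0: miR-278-z in PL over CL without PL 3 (-0.01), and in CL over Pre-CL the ratio of miR-278-y to miR-278-x without Pre-CL 3 (-0.18) or with summed counts (-0.01), and to miR-278-z without Pre-CL 1 (0.004) or Pre-CL 2 (0.05). Over total counts the log2 fold changes of miR-278-x, miR-278-y and miR-278-z were 0.80, 2.38 and 0.74 in PL over CL and 2.05, 3.64 and 2.19 in PL over Pre-CL. With limma on log2(TPM + 1) they were 0.75, 2.35 and 0.70, and 1.88, 3.63 and 2.16. Over clean reads miR-278-x had 0.49 and miR-278-z 0.43 in PL over CL, and miR-278-x had 1.66 in PL over Pre-CL. The share of miRNA counts of the 3 isoforms was 0.0749% in Pre-CL, 0.170% in CL and 0.702% in PL when taken over clean reads.

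Counts of calls moved too. In PL over CL, 76 were called higher over total counts and 75 with limma, and 17 lower with each, against 48 and 31. In PL over Pre-CL, 31 and 29 were called lower, against 47. Of the energy and growth list, 4, 3 and 4 were called higher in PL over CL over total counts, over clean reads and with limma, and 0 lower over total counts and with limma in both comparisons with PL.

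Leaving out each library in turn, the log2 fold change in PL over Pre-CL ran from 1.36 to 1.61 for miR-278-x and from 2.85 to 3.37 for miR-278-y, highest without Pre-CL 2, and miR-278-z in PL over CL from -0.01 to 0.30. All miRNAs called lower in CL over Pre-CL numbered 10 to 27, lowest without CL 2 or CL 3. Calls higher of the list numbered 1 to 2 in CL over Pre-CL, 0 to 2 in PL over CL and 2 to 5 in PL over Pre-CL, the 5 being of 8 tested without CL 2.

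No pairing of the samples by replicate number was seen: of 9 same-numbered pairs, 4 correlated over 0.1 (r between -0.35 and 0.295). Pairs with different numbers had r between -0.515 and 0.429. These are correlations of deviations from means of 3 libraries, so they cannot exclude a pairing. With the replicate block the log2 fold changes of miR-278-x, miR-278-y and miR-278-z were 1.23, 1.26 and 1.47 in CL over Pre-CL, 0.22, 1.82 and 0.13 in PL over CL, and 1.45, 3.08 and 1.60 in PL over Pre-CL. Calls numbered 20 higher and 16 lower, 39 and 29, and 61 and 44.

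With only targets that have a protein description, 33, 35 and 38 targets of miR-278-x, miR-278-y and miR-278-z remained countable, 42 for any and 28 for all 3. They shared 28 (x with y), 33 (x with z) and 31 (y with z). The counts of miR-278-x, at 40 to 51 in Pre-CL libraries, limit its precision.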
